A study of Mus musculus with 4 samples.

Results

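The structural genes of the myelin sheath were followed in RNA-Seq counts of 1° mouse oligodendroglial cells (OGCs) with and without Zfp276. The 9 genes are Mbp, Mobp, Mag, Mog, Cnp, Cldn11, Opalin, Mal and Pllp. They were picked by symbol among 53465 listed genes, and all 9 passed the filter on low counts that left 15766 tested genes. Both groups were homozygous for Zfp276 flox/flox, in which exons 2 to 5 lie between loxP sites. The 2 ctrl libraries came from cultures without Cre, and the 2 Zfp276cko libraries from cultures that also carried the Sox10::Cre transgene, which is active in the oligodendroglial lineage. Per the study's methods, each preparation combined 3 mice at P2-P4 and both sexes were used. The cells were shaken off mixed glial cultures of the forebrain, depleted of microglia and left to differentiate for 3 days. The mice crossed for cultures also carried a tdTomato reporter allele, and the methods do not say whether the ctrl cultures had it. The comparison asks whether transcripts of the myelin sheath differ in amount when OGCs lack Zfp276.

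Oligodendrocytes (OLs) wrap axons with layers of their own membrane, and the cytoplasm is squeezed out of most of them to give compact myelin. Mbp holds the cytoplasmic faces of this membrane together, and Mobp lies in the same compartment. The other genes belong to other parts of the sheath, so that the 9 are not all components of compact myelin in the strict sense. Cnp is an enzyme of the cytoplasm-filled channels, Mag faces the axon, Mog sits on the outermost surface and Cldn11 forms the tight junctions between the layers. Opalin is a membrane glycoprotein of OLs, and Mal and Pllp are small proteins with 4 membrane spans that associate with lipid-rich membranes. Transcription of many of these genes is switched on late in the lineage by Sox10 together with Myrf.

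The deletion and the lineage were checked first. Zfp276 stood at 1648 (replicate 1) and 2230 (replicate 2) normalized counts in the ctrl libraries and at 490 and 503 in the Zfp276cko libraries, so that 25.6% of the ctrl mean was left. Exons of Fanca on the opposite strand cover 16.6% of the exon length of Zfp276. Here and below, normalized counts have been brought to a common effective library size. Sox10, the marker of all OGCs, ranged from 17805 to 20744 normalized counts, and the genotypes overlapped. Counted reads per library ranged from 21068322 to 26599809. The ctrl libraries stood apart from each other. Of 14324 genes with a mean of at least 20 normalized counts, 12.8% differed 2-fold or more when the ctrl pair was compared and 0.335% when the Zfp276cko pair was. Summed over 8 markers of fibroblasts and mural cells, ctrl replicate 1 had 8957 normalized counts and the other 3 libraries between 283 and 475. Of the 8, 1 had lower counts in Zfp276cko cells without overlap of the genotypes, as had 23.7% of all tested genes. The sum over 11 microglia markers was 47205 in ctrl replicate 1, 24633 in ctrl replicate 2, and 32885 and 34227 in the Zfp276cko pair. Of these markers, Aif1 and Cx3cr1 were higher in ctrl replicate 2 and the others in ctrl replicate 1. Values below are therefore given for each library, and with each ctrl library left out.

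The upstream sequences of some of these genes are shown because 8 of the 9 genes had lower counts in Zfp276cko cells, and Sox10, Myrf and Zfp276 are factors that bind DNA. They end before the first annotated exon base, run 5′ to 3′ on the strand of the gene and come from RefSeq's GRCm38.p6 assembly, the build of mm10. Capitals mark matches on either strand to ACAAAG (a core of sites for Sox factors), to CTGGCAC (a form of the Myrf site) or to AAAGGG (core letters of the Zfp276 consensus that the study describes). Mag (chr7:30914874-30915113, minus strand) and Cnp (chr11:100574689-100574903, plus strand) hold both an ACAAAG and a CTGGCAC, Mobp (chr9:120149492-120149706, plus strand) holds the most ACAAAG matches, Opalin (chr19:41077114-41077363, minus strand) belongs to the gene with the lowest counts, and Cldn11 (chr3:31149670-31149919, plus strand) to the gene whose counts overlapped between genotypes.
Mag: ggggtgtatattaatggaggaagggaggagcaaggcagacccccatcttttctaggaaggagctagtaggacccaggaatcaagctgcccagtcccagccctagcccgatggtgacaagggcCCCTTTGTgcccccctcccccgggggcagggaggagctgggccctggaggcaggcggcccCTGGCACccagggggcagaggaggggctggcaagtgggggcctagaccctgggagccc
Cnp: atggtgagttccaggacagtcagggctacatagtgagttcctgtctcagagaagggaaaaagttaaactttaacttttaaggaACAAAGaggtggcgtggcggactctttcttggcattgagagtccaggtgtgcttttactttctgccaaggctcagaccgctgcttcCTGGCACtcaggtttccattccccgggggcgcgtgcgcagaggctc
Mobp: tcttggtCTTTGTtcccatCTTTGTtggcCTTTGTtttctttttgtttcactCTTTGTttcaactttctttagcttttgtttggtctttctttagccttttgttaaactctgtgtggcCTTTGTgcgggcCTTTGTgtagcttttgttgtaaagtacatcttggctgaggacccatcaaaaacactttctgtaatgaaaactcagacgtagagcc
Opalin: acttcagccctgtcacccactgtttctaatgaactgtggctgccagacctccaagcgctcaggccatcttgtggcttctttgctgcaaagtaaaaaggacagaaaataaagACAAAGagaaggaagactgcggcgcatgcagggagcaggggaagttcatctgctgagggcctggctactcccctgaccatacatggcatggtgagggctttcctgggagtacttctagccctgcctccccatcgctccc
Cldn11: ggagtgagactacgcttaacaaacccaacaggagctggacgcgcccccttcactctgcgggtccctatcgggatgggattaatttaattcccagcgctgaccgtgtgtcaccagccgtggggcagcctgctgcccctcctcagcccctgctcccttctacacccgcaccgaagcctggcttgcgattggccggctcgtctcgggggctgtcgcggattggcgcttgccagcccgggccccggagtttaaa

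In the 250 bases before the RefSeq start, ACAAAG was present in 4 of the 8 genes searched (all but Mbp), namely Mobp with 6 matches, and Mag, Cnp and Opalin with 1 each. Of 32851 promoters of the same length, 16.5% held it. CTGGCAC was found 68 bases before the start of Mag and 81 bases before that of Cnp, and in 4.19% of all promoters. CTGGTAC, the other form of the Myrf site that was searched, was found in Mog, 83 bases before the start, and in 1.83% of all promoters. AAAGGG was found in Mag alone, where its letters overlap those of the ACAAAG match, and in 19% of all promoters. The letters beside this match differ from the full consensus of the study (RAAAGGGYK). The study reports that its own screen of a Mag regulatory region found no Zfp276 consensus site. ACAATG (10.7% of all promoters) and TATAAA (12.4%) had no match in the 8 genes. Mal, Pllp and Cldn11 held none of the 6 motifs in this window. These are matches of letters and not measured binding.

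Across the 9 genes, 8 had lower counts in either Zfp276cko library than in any ctrl library, and the median log2 fold change (Zfp276cko minus ctrl) was −0.87. The median over all tested genes was −0.0013. Such a complete separation was seen in the same direction for 23.7% of all tested genes. A gene was called where its adjusted p (edgeR's quasi-likelihood test, Benjamini-Hochberg over all tested genes) was 0.05 or less, and its log2 fold change reached 0.6 in size and its mean 20 normalized counts. By this rule 0 of the 9 genes were called, as were 0% of all tested genes, among which the lowest adjusted p was 0.0725. The deleted gene Zfp276 was itself not called (log2 fold change −1.97, edgeR quasi-likelihood adjusted p = 0.0962). When the p was left unadjusted, 7 of the 9 were lower, compared with 3.02% of all tested genes. DESeq2, the tool of the study, called 5 of the 9 lower (Mbp, Mag, Mog, Cnp and Pllp), compared with 2.3% of the genes to which it gave an adjusted p. In bulk cultures, fewer myelinating cells and less transcript per cell cannot be told apart.

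**Figure D1:**
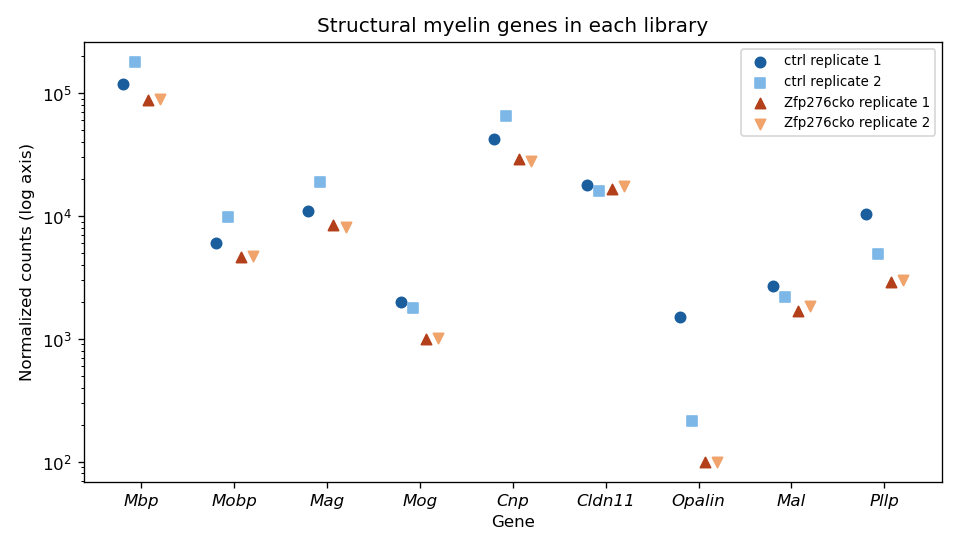
Normalized counts of the 9 structural myelin genes (x axis) on a log axis, with 1 point for each of the 4 libraries. Both Zfp276cko points lie below both ctrl points for every gene but Cldn11, where the 4 points overlap, and the Zfp276cko points lie close together.

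Mbp encodes the protein that seals the cytoplasmic surfaces of compact myelin, and its locus also gives rise to Golli transcripts, which a count per gene includes. Mbp had 118071 and 177958 normalized counts in the ctrl replicates and 87161 and 89976 in the Zfp276cko replicates. Both Zfp276cko values lay below the lower ctrl value, and the ctrl replicates were 1.51-fold apart. Ctrl cells averaged 148015 ± 42347 (SD, n = 2) and Zfp276cko cells 88569 ± 1990 (SD, n = 2), which gives a log2 fold change of −0.74 (SE 0.25, edgeR quasi-likelihood adjusted p = 0.298). DESeq2 gave an adjusted p of 0.0414. Relative to ctrl replicate 1, the mean of the Zfp276cko libraries was 75% for Mbp, and relative to ctrl replicate 2 it was 49.8%. In mm10 the gene spans 82475146 to 82585637 of chromosome 18 (plus strand).

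Mobp, the other basic protein of the cytoplasmic faces (chromosome 9, 120149707 to 120181484, plus strand), had 6022 (ctrl 1) and 9819 (ctrl 2) normalized counts against 4611 and 4699 in the Zfp276cko pair. Its log2 fold change was −0.77 (SE 0.26, edgeR quasi-likelihood adjusted p = 0.298, DESeq2 adjusted p = 0.0761), so that neither test called it. An annotated noncoding transcript on the same strand covers 1.15% of its exon length.

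Cnp and Mag followed the same order of libraries as Mbp and Mobp, with ctrl replicate 2 highest, ctrl replicate 1 next and both Zfp276cko replicates lowest. Cnp, the phosphodiesterase of noncompact myelin (chromosome 11, 100574904 to 100591729, plus strand), had 42469 (ctrl 1) and 64535 (ctrl 2) normalized counts against 29020 and 27869 in the Zfp276cko pair. The Zfp276cko mean was 53.2% of the ctrl mean, with a log2 fold change of −0.91 (SE 0.24, edgeR quasi-likelihood adjusted p = 0.225, DESeq2 adjusted p = 0.00663). Dnajc7 on the opposite strand overlaps 4.23% of the exon length of Cnp, and reads of the overlap cannot be assigned where the strand was not used in counting. Mag, a sialic acid-binding adhesion molecule of the membrane next to the axon (chromosome 7, 30899176 to 30914873, minus strand), had 11060 (ctrl 1) and 18911 (ctrl 2) normalized counts against 8380 and 8071 in the Zfp276cko pair. Here the ctrl replicates were 1.71-fold apart, which is close to the difference between genotypes, and the log2 fold change was −0.87 (SE 0.29, edgeR quasi-likelihood adjusted p = 0.29, DESeq2 adjusted p = 0.0473). If ctrl replicate 2 was omitted, the log2 fold changes were −0.43 for Mbp, −0.38 for Mobp, −0.59 for Cnp and −0.44 for Mag. If ctrl replicate 1 was omitted, they were −1.01, −1.08, −1.18 and −1.20 in the same order.

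Mog was the gene with the most even replicates among those that separated the genotypes. Mog is an immunoglobulin-like protein of the outer surface of the sheath (chromosome 17, 37010743 to 37023398, minus strand) and is known as a late marker of OL maturation. It had 1996 (ctrl 1) and 1794 (ctrl 2) normalized counts against 990 and 1010 in the Zfp276cko pair. The ctrl replicates differed 1.11-fold, whereas the Zfp276cko mean was 52.8% of the ctrl mean. The log2 fold change was −0.92 (SE 0.10, 95% interval −1.19 to −0.65), with adjusted p-values of 0.103 (edgeR quasi-likelihood, the lowest of the 9 genes) and 5.76e-06 (DESeq2). It lay between −1.01 and −0.84 when each library was left out in turn.

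Opalin had the lowest counts of the 9 genes, and they varied most between libraries. This OL-specific sialylated membrane protein (chromosome 19, 41061710 to 41077113, minus strand) had 1504 normalized counts in ctrl replicate 1, 215 in ctrl replicate 2 and 98.6 and 98.8 in the Zfp276cko replicates. The raw counts were 1267, 191, 109 and 115. The genotypes did not overlap, but the ctrl replicates were 7-fold apart. The log2 fold change of −3.12 (SE 1.00, edgeR quasi-likelihood adjusted p = 0.278, DESeq2 adjusted p = 0.11) depended most on ctrl replicate 1. It was −1.12 without this library and −3.94 without ctrl replicate 2. In other terms, the Zfp276cko mean was 6.56% of ctrl replicate 1 and 45.9% of ctrl replicate 2.

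Pllp and Mal, both small proteolipids of the MARVEL family, shared with Opalin the order of the ctrl replicates. Pllp (chromosome 8, 94674894 to 94696278, minus strand) had 10287 (ctrl 1) and 4915 (ctrl 2) normalized counts against 2907 and 3036 in the Zfp276cko pair. Its log2 fold change of −1.35 (SE 0.38, edgeR quasi-likelihood adjusted p = 0.237, DESeq2 adjusted p = 0.00635) became −0.73 if ctrl replicate 1 was omitted and −1.80 if ctrl replicate 2 was. An antisense gene, Gm45767, overlaps 54.2% of the exon length of Pllp and had between 30 and 54 counts per library, and reads of this overlap cannot be told apart unless the counting used the strand. Mal (chromosome 2, 127633226 to 127656695, minus strand), which takes part in the sorting of myelin membrane, had 2693 (ctrl 1) and 2172 (ctrl 2) normalized counts against 1673 and 1845 in the Zfp276cko pair. The genotypes of Mal did not overlap, with a log2 fold change of −0.47 (SE 0.14, edgeR quasi-likelihood adjusted p = 0.262, DESeq2 adjusted p = 0.188). For Mal this became −0.30 if ctrl replicate 1 was omitted and −0.63 if ctrl replicate 2 was. The high values of Opalin and Pllp in ctrl replicate 1 went along with the fibroblast, mural and microglia marker counts given above, and the part of those cells in the values was not tested.

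Cldn11 stood outside this pattern. Cldn11 (chromosome 3, 31149920 to 31164324, plus strand) builds the tight junction strands of CNS myelin. It had 17801 (ctrl 1) and 15999 (ctrl 2) normalized counts against 16647 and 17485 in the Zfp276cko pair, and both Zfp276cko values lay between the ctrl values. The log2 fold change was 0.014 (SE 0.12, edgeR quasi-likelihood adjusted p = 0.97). Its unadjusted 95% interval ran from −0.32 to 0.35, and its sign turned to −0.00086 with DESeq2's size factors. The point estimates of the other 8 genes, from −3.12 to −0.47, lie outside this interval, while the intervals of Mal (−0.85 to −0.081) and others overlap it. Whether the fold change of Cldn11 differed from that of each other gene was not tested.

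**Figure D2:**
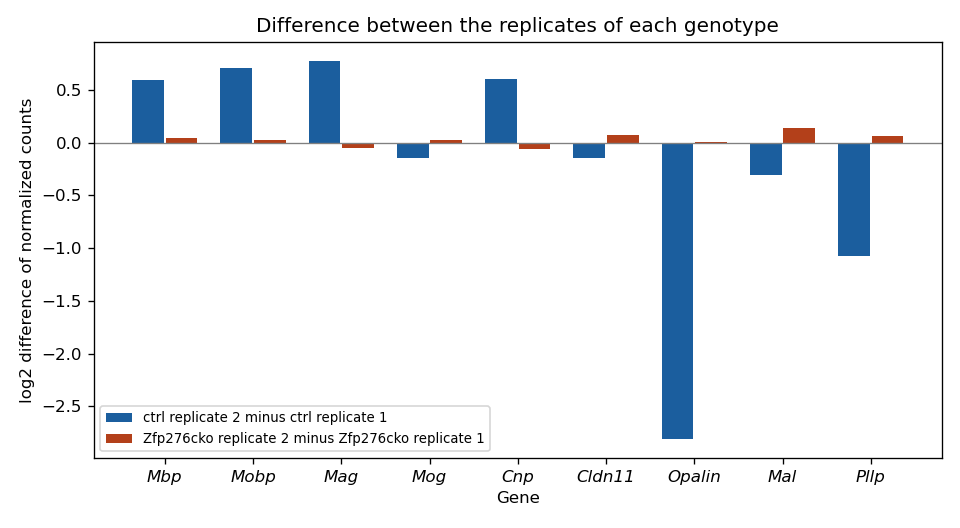
Log2 difference of normalized counts between replicate 2 and replicate 1 of each genotype for the 9 genes (x axis). The ctrl bars reach 0.77 upwards for Mag and −2.81 for Opalin, whereas every Zfp276cko bar lies between −0.058 and 0.14.

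The ctrl replicates thus split the 9 genes. Mbp, Mobp, Cnp and Mag were higher in ctrl replicate 2 by 0.59 to 0.77 on the log2 scale. Opalin, Pllp, Mal, Mog and Cldn11 were higher in ctrl replicate 1, with differences between −2.81 (Opalin) and −0.15 (Mog and Cldn11). The median absolute difference between the ctrl replicates was 0.60 for the 9 genes and 0.29 for all genes with a mean of at least 20 normalized counts. Between the Zfp276cko replicates it was 0.054 for the 9 genes and 0.087 for all such genes. The ctrl replicates were thus farther apart in these genes than in the median gene, and the Zfp276cko replicates were not.

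**Figure D3:**
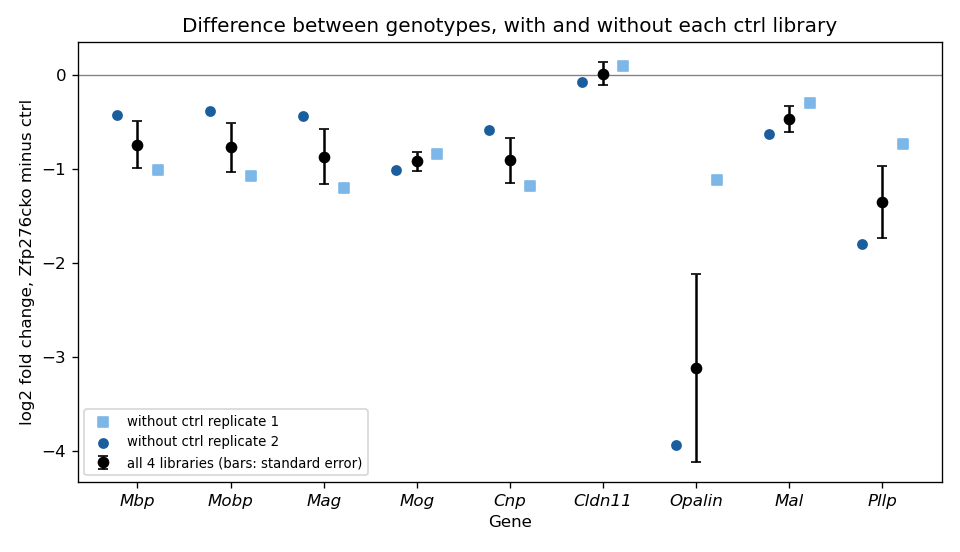
Log2 fold change (Zfp276cko minus ctrl) of each gene from all 4 libraries, with bars of 1 standard error, and after leaving out either ctrl library. Leaving out ctrl replicate 2 brings Mbp, Mobp, Mag and Cnp closer to 0, and leaving out ctrl replicate 1 does so for Opalin, Pllp and Mal.

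Leaving out either ctrl library changed which genes were called, in fits that take the spread from the Zfp276cko pair and assume that the lone ctrl library varies as little. Without ctrl replicate 1, 7 of the 9 genes were called lower by edgeR's quasi-likelihood test (all but Cldn11 and Mal), and without ctrl replicate 2, 4 were (Mog, Opalin, Mal and Pllp). Mog, Opalin and Pllp were called in both fits. Genes outside the 9 were also called lower in these fits, so that the gain in calls was not confined to myelin genes. The share called lower was nevertheless larger among the 9 genes than among all tested genes, whichever ctrl library was dropped. How far either share rests on the assumed spread was not tested. Without either Zfp276cko library, 0 of the 9 were called.

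Scaling to Sox10, the marker of all OGCs, left the Zfp276cko libraries below ctrl for the same 8 genes. Olig1 and Olig2, also factors of the lineage, were lower in Zfp276cko cells (log2 fold changes −0.86 and −0.60). Scaling to them was not done. Divided by the Sox10 count of the same library, Mbp had 6.51 and 8.58 counts per Sox10 count in ctrl against 4.9 and 4.83 in the Zfp276cko pair. Mog had 0.11 and 0.0865 in ctrl against 0.0556 and 0.0543 in the Zfp276cko pair. On the Sox10 scale the genotypes again did not overlap for 8 of the 9 genes, with Zfp276cko lower, and the median log2 difference was −0.75. The share of all genes that separated on this scale was not computed. Cldn11 had 0.982 and 0.771 counts per Sox10 count in ctrl against 0.935 and 0.939 in the Zfp276cko pair, which overlapped.

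Levels of different genes were compared per length, as TPM, a count per exon length scaled to the same total in every library, computed from the counts and the annotated exon length. This length joins all annotated exons of a gene, 8469 bases for Mbp and 6849 for Mobp against 1870 for Cldn11 and 1704 for Mog. A gene whose transcripts hold only part of its exons has too low a TPM. The order of genes and the pool shares below depend on this choice of length. In ctrl cells the means were 2660 for Mbp, 2240 for Cnp, 1360 for Cldn11, 563 for Mag, 537 for Pllp, 177 for Mobp, 167 for Mog, 131 for Mal and 41.9 for Opalin. Neighbours in this order overlapped between the ctrl libraries for Mbp and Cnp (1970 and 3360 against 1650 and 2840), for Mag and Pllp, and for Mobp and Mog (124 and 229 against 165 and 168). Mog lay above Mal (137 and 125) in both ctrl libraries. In Zfp276cko cells Cldn11 moved above Cnp, with 1490 and 1520 TPM against 1340 and 1250, and Mal above Mog, with 101 and 108 TPM against 97.3 and 96.5. Mbp remained first with 1720 and 1730 TPM, and Opalin last with 5.61 and 5.46. Together the 9 genes made up 6540 and 9220 TPM in ctrl and 5440 and 5380 TPM in Zfp276cko cells. Of the counted reads of a library, which are not scaled to length, they made up between 0.663% and 1.25%.

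**Figure D4:**
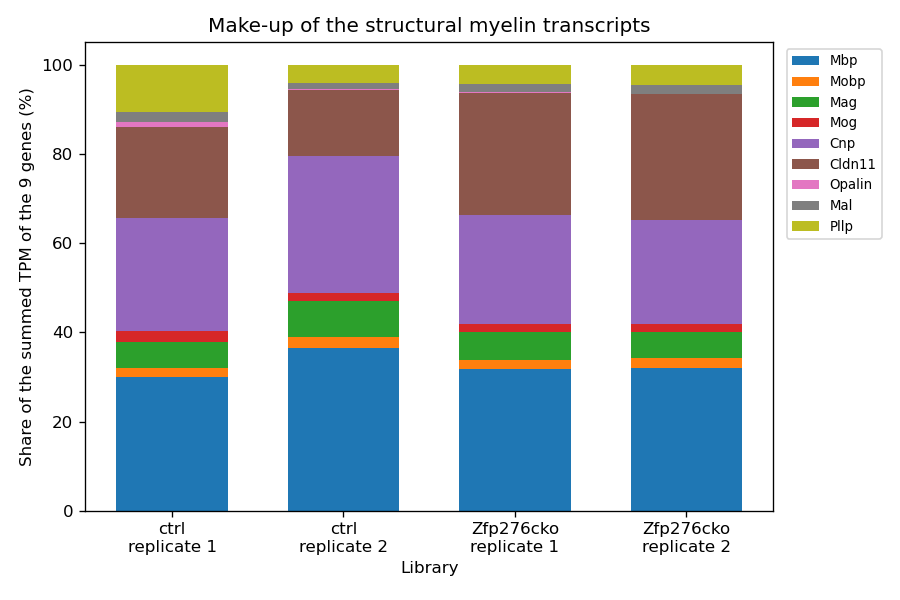
Share of each gene in the summed TPM of the 9 structural myelin genes (y axis, percent) in each of the 4 libraries (x axis). The Cldn11 segment is largest in the Zfp276cko libraries (27.4% and 28.3%) and the Pllp segment is largest in ctrl replicate 1 (10.7%).

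Within this pool, Cldn11 made up 20.6% and 14.8% in ctrl against 27.4% and 28.3% in the Zfp276cko pair. Cnp made up 25.2% and 30.8% in ctrl against 24.5% and 23.2% in the Zfp276cko pair, and Opalin 1.1% and 0.127% against 0.103% and 0.101%. The genotypes did not overlap for the shares of Cldn11, Cnp, Mog and Opalin, and in each case the exact two-sided permutation test gave p = 0.333, which is the smallest p that 2 libraries against 2 allow. The shares are parts of a common total, so a share can rise where the counts of its gene do not. The normalized counts of Cldn11 overlapped between the genotypes. The shares of Mbp, Mobp, Mag, Mal and Pllp also overlapped between the genotypes. For Mbp they were 30.1% and 36.5% in ctrl against 31.7% and 32.1% in the Zfp276cko pair.

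Other genes of myelin and of the OL membrane were taken from a list of 25, all of which were tested. Of these, 15 had lower counts in Zfp276cko cells and 3 had higher counts without overlap of the genotypes, with a median log2 fold change of −0.66. Over all tested genes, 23.7% were lower and 26.8% higher without overlap. The quasi-likelihood test called 0 of them (8 lower with the p left unadjusted), and DESeq2 called 8 lower and 0 higher, compared with 2.3% and 3.05% of the genes to which it gave an adjusted p. Ermn, a cytoskeletal protein of late OLs, had 826 (ctrl 1) and 632 (ctrl 2) normalized counts against 299 and 363 in the Zfp276cko pair (log2 fold change −1.14, SE 0.20, edgeR quasi-likelihood adjusted p = 0.158). Sept4, a septin of the sheath, had 3130 and 1780 in ctrl against 1190 and 1140 in the Zfp276cko pair. Like Cldn11, several membrane genes overlapped or lay higher, such as Cd9 (28200 and 16800 in ctrl, 21800 and 22400 in Zfp276cko cells) and Cmtm5, a MARVEL family relative of Pllp (860 and 1020 in ctrl, 1320 and 1220 in Zfp276cko cells). Cd9 and Cmtm5 were chosen with their values in view.

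Of 17 transcriptional regulators of myelin genes, 12 were lower and 1 was higher in Zfp276cko cells without overlap, with a median log2 fold change of −0.25. Over all tested genes, 23.7% were lower and 26.8% higher without overlap. DESeq2 called 4 lower, namely Myrf, Olig1, Sox8 and Olig2, and the quasi-likelihood test called 0 (4 lower with the p left unadjusted). The shares over all genes were 2.3% called lower by DESeq2 and 3.02% lower with the p left unadjusted. Myrf, the factor that induces many of the 9 genes, had 10300 (ctrl 1) and 14000 (ctrl 2) normalized counts against 6690 and 6570 in the Zfp276cko pair, an order of libraries like that of Mbp and Cnp. Olig1, a basic helix-loop-helix factor of the lineage, had 31700 and 28900 in ctrl against 16800 and 16500 in the Zfp276cko pair. Sox8 and Olig2 had log2 fold changes of −0.65 and −0.60.

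Genes whose profile over the 4 libraries was most like the mean profile of the 9 genes were sought among 5704 other genes with a mean of at least 1000 normalized counts. The measure was the root mean square difference of log2 values centred on each gene's mean, over 4 libraries only. The closest were Ptpre (0.0303), Olig1 (0.042), Traf4 (0.0455), Stk39 (0.0487) and Desi1 (0.0509). Of the 9 genes themselves, Mog came closest to their mean profile (0.0169) and Opalin was the farthest from it (1.22).

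Relatives of the 9 genes were mostly low or variable. Among 15 genes of the MARVEL, claudin, Siglec and proteolipid families, 9 were tested, of which 2 were lower and 5 were higher in Zfp276cko cells without overlap, and both tools called 0, as did the unadjusted p. The share of all tested genes that were higher without overlap was 26.8%. Cd22, a Siglec relative of Mag, was at 104 and 21.4 normalized counts in ctrl against 176 and 187. Of the claudins, Cldn12 was the only one on the list besides Cldn11 that was tested (965 and 746 in ctrl, 1040 and 983 in Zfp276cko cells). Of 7 genes of peripheral myelin, 3 were tested and both tools called 0, as did the unadjusted p. Prx had 29.7 and 42.8 normalized counts in ctrl against 58.8 and 63.6. Cldn12 was also picked with its values in view.

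Markers of other cells and states gave the following values beside these results. Of 11 genes listed as markers of OL precursor cells (OPCs), DESeq2 called 2 lower (Cspg5 and Gpr17) and 2 higher (Sox5 and Id2). The median log2 fold change of the 11 was −0.13 in the fit of edgeR, and 5 were lower and 2 higher without overlap. Their summed normalized counts were 229944 and 163676 in ctrl against 130147 and 129600 in the Zfp276cko pair. Gpr17 alone had 113405 and 69766 of these in ctrl against 43296 and 41092 in the Zfp276cko pair. Over all genes, DESeq2 called 2.3% lower and 3.05% higher, and 23.7% were lower and 26.8% higher without overlap. Of 11 microglia markers 0 lay below and 2 above, of 8 astrocyte markers 2 lay below and 1 above, and of 8 neuron markers 1 lay below and 0 above. Summed normalized counts of the neuron markers were 1699 and 5260 in ctrl against 4094 and 3940 in the Zfp276cko pair. For the astrocyte markers the sums were 35018 and 28152 in ctrl against 31112 and 29729 in the Zfp276cko pair. Single markers did not all follow this sum. Gfap, Slc1a2, Aldoc and S1pr1 were higher in ctrl replicate 1, and Aqp4, Aldh1l1, Slc1a3 and Gja1 in ctrl replicate 2. Of 15 interferon response genes, 14 were higher in Zfp276cko cells without overlap and 11 were called higher by DESeq2 (26.8% and 3.05% over all genes), with summed normalized counts of 9438 and 4072 in ctrl against 82560 and 80764 in the Zfp276cko pair. The lower myelin gene counts and the higher interferon response counts occurred in the same 2 libraries, and the part of either in the other was not tested.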

How the data were processed

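Total RNA of 2 ctrl and 2 Zfp276cko preparations was sequenced as stranded single-end mRNA libraries. Whole-number counts per gene symbol were deposited by the authors, unfiltered and not normalized. Reads were mapped to mm10 with STAR 2.5.4a per the submitters' processing notes, which name featureCounts 1.5.1, whereas the methods name HTSeq count on unique mappings. The strand setting was not given in the sources used here. Counts ranged from 21068322 to 26599809 per library. The replicates are independent preparations, and with 2 per genotype their number limits every comparison.

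Counts were analysed in R 4.3.3 with edgeR 4.0.16 (filterByExpr, TMM, factors between 0.935 and 1.04, quasi-likelihood test with the legacy setting on, Benjamini-Hochberg adjustment over 15766 genes). Genes that share a symbol (220 entries) were kept separate. Standard errors are the fold change divided by the root of the F statistic. Alternatives were DESeq2 1.42.0, limma 3.58.1 (voom), other scalings and filters, a replicate block and leaving out each library. The fit was tested on simulated data with the same spread in both genotypes, unlike the data here. Positions and exon lengths came from GENCODE vM21 (mm10), with a length for 15482 tested genes. RefSeq promoters of 8 of the 9 genes were searched, and that of Mbp was not used here.

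The 9 genes, the gene lists and the tests were chosen with earlier results of these data known. Named besides the 9 genes were Zfp276, Sox10, genes with the largest non-overlapping differences in each list, and the 5 genes of most similar profile. Astrocyte and microglia markers were also named by the ctrl replicate in which they were higher. Genes singled out after their values were seen are marked as such. A gene that this rule covers is not reported here. The sequences of the proteins, the stainings, the qRT-PCR and the reporter assays of the study were not analysed here.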

Additional observations from a re-analysis of the deposited data

How the results depend on the processing

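The count of 0 of the 9 structural myelin genes called lower stayed at 0 with DESeq2's size factors, without a filter on low counts, with at least 10 counts in every library, with limma voom, with the legacy setting off and without thresholds on fold change or mean. It was 5 with DESeq2 and 7 with an unadjusted p, and ranged from 0 to 7 with each library left out. For the other myelin genes the counts were 8, 8 and 0 to 12, with 0 to 1 called higher with each library left out. For the regulators they were 4, 4 and 0 to 5. The median log2 fold change of the 9 genes was −0.81 with limma voom, −0.75 when scaled to Sox10 counts, and between −1.01 and −0.59 with each library left out. Zfp276 was called by DESeq2 (log2 fold change −1.98) but not by edgeR's quasi-likelihood test (−1.97, adjusted p = 0.0962). Its log2 fold change ranged from −2.17 to −1.74 with each library left out. Cldn11, whose value of 0.014 is near 0, turned negative with DESeq2's size factors (−0.00086), with DESeq2 (−0.0027) and without ctrl replicate 2 (−0.072) or Zfp276cko replicate 2 (−0.022), within a range of −0.072 to 0.094 with each library left out. The cause was not tested.

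Replicate numbers were shared by both genotypes, but the deviations of same-numbered libraries had a correlation of −0.005, so the numbers were not taken as pairs. With a replicate block 0 of the 9 genes were called and the median log2 fold change was −0.81. Each of the 4 libraries had at least 21068322 counts. Among the 9 genes only Opalin had fewer than 1000 counts in a library.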
